A study of Talpa occidentalis with 24 samples.

Results

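The chromatin of the mouse ovary was compared with that of the mouse testis by the states assigned to the same 200 bp bins of the autosomes. The bins were taken by position only: every bin of chromosomes 1 to 19 of the mm9 build entered, which gave 12361703 bins (2472 Mb) of the 13274547 bins in each mouse segmentation. The 5 deposited segmentations of the series, mouse and mole together, hold 58029258 bins. The mouse gonads came from embryos at embryonic day 13.5, and whole gonads fixed in 1% formaldehyde were sonicated, per the labels' protocols. The labels used here name neither the strain and genotype of the mice, nor how many animals were pooled, nor how many libraries stand behind each mouse segmentation. The labelled libraries are all from mole gonads at postnatal day 7 and were not analysed here.

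Each gonad has 1 segmentation, so no difference between ovary and testis has a replicate check, and no test was run. The depth of the libraries is unknown. Bins lie next to each other and chromosomes are parts of the same samples, so ranges over the 19 autosomes describe variation along the genome, not between animals. A whole gonad mixes supporting cells, germ cells, steroidogenic cells, endothelium and blood. A state that covers less of the genome in such a mixture can come from fewer cells of a type or from less of a mark per cell, and these cannot be told apart. The cell types could not be checked against their marker genes, because no mouse gene annotation was used here. Regions are therefore given by mm9 position, counted from 1, and no gene is placed on them. The chromosome Y values given in the closing section lie in the direction that the labels ovary and testis call for.

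At this stage of mouse development the gonads have recently taken their sexual fate. In the testis, Sertoli cells enclose the germ cells in cords and the germ cells stop dividing. In the ovary, pre-granulosa cells surround germ cells that enter meiosis. A set of 4 histone marks was used in the series. H3K4me3 marks promoters, H3K4me1 marks enhancers whether or not they are active, and H3K27ac marks active promoters and enhancers. H3K27me3 is deposited by Polycomb complexes and is linked to silencing. A promoter that carries both H3K4me3 and H3K27me3 is called bivalent, and many developmental regulators have such promoters. The authors named 7 states: promoter, active enhancer, poised enhancer, bivalent promoter, Polycomb repression, undefined and gap. The names were used as deposited, and the labels do not say how each follows from the marks. In a mixture of cell types, the bivalent state of a bin does not show that both marks lie in the same cells.

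The ovary carried more active enhancer and more bivalent promoter chromatin than the testis, and less poised enhancer chromatin. The active enhancer state covered 12.8% of autosomal bins in the ovary (316.3 Mb) and 10.3% in the testis (253.6 Mb). The testis had 0.802 times the coverage of the ovary, and its share was lower on 19 of 19 autosomes. The bivalent promoter state covered 0.703% in the ovary (17.4 Mb) and 0.378% in the testis (9.33 Mb). The testis had 0.537 times the coverage, again lower on 19 of 19 autosomes. The poised enhancer state differed in the opposite direction. It covered 15.6% of the ovary's bins and 17.7% of the testis's, a ratio of 1.13 and higher in the testis on 19 of 19 autosomes.

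The remaining states were closer in amount. Promoter chromatin covered 0.805% in the ovary and 0.772% in the testis, a ratio of 0.959 that lay below 1 on 18 of 19 autosomes. Chromosome 10 was the exception, with a ratio of 1.04. Polycomb repression covered 26.5% in the ovary and 25.5% in the testis, a ratio of 0.964, and was higher in the testis on 2 of 19 autosomes. The undefined state covered 33.6% and 35.3%, and was higher in the testis on 19 of 19. The gap state covered 9.998% in the ovary and 10.07% in the testis.

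The range of active enhancer coverage over the chromosomes was wider than the difference between the gonads. Active enhancer coverage was highest on chromosome 11 in both gonads, with 18.6% in the ovary and 14.1% in the testis. It was lowest on chromosome 3 in both, with 9.92% and 8.14%. The SD over the 19 autosomes was 1.93 percentage points in the ovary and 1.38 in the testis. The ratio of testis to ovary ran from 0.756 on chromosome 11 to 0.847 on chromosome 15, so the chromosome with the most active enhancer state also had the lowest ratio. Chromosome 11 had the most promoter state too, with 1.33% in the ovary and 1.27% in the testis, and the highest ratio of poised enhancer state, 1.22.

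Among the 7 states, the ratio of testis to ovary varied most from chromosome to chromosome for the bivalent state. In the ovary the state ran from 0.389% on chromosome 16 to 1.14% on chromosome 19, and in the testis from 0.258% on chromosome 14 to 0.575% on chromosome 11. The ratio was lowest on chromosome 19, at 0.460, and highest on chromosome 16, at 0.745. Its mean over the autosomes was 0.548 ± 0.0592 (SD over 19 chromosomes). The gap state took 18.7% of chromosome 7 in the ovary and 18.6% in the testis, against 6.33% and 6.41% on chromosome 11. One gap segment on chromosome 7 was 7034400 bp long in the ovary, from 39345401 to 46379800, and 7015000 bp in the testis, from 39343401 to 46358400.

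**Figure D1:**
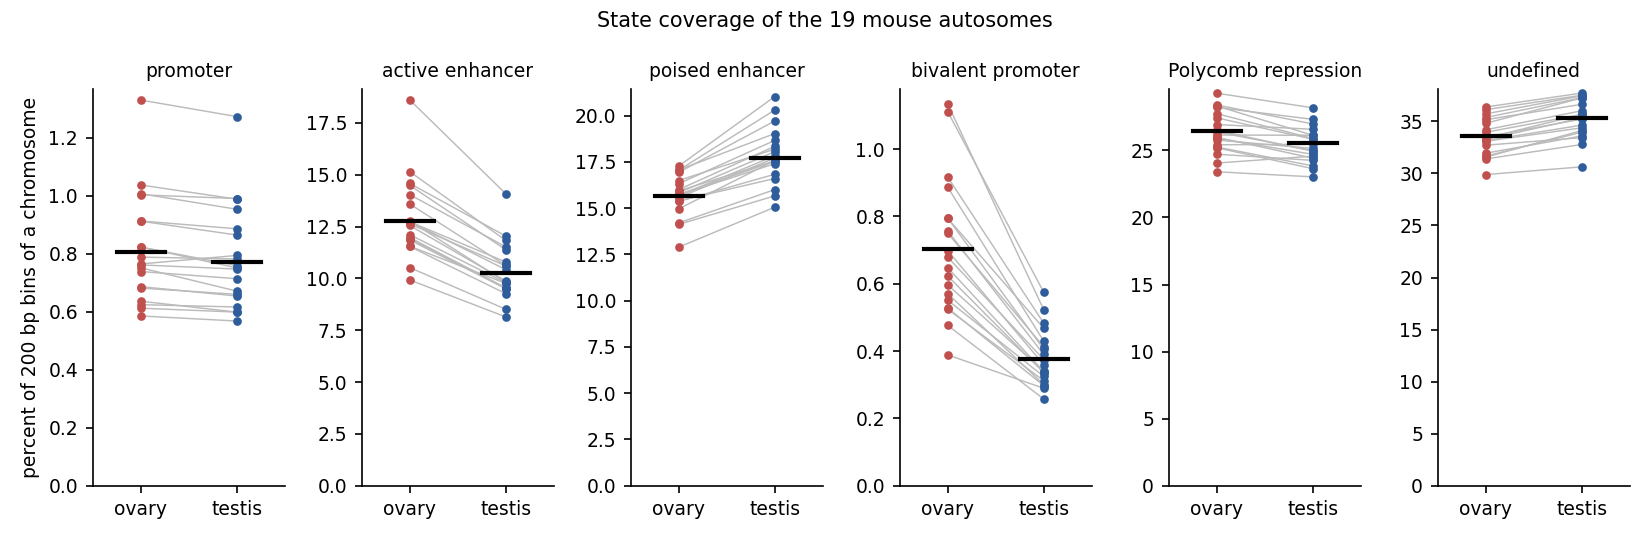
Percent of the 200 bp bins of each autosome in 6 of the 7 states (y axis, from 0) in ovary and testis; each point is 1 of 19 chromosomes, grey lines join the same chromosome, and black bars give the value over all autosomes. Every line falls from ovary to testis for the active enhancer and the bivalent promoter state and rises for the poised enhancer and the undefined state.

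Bin by bin, 48.5% of the autosomal bins (5994454 bins, 1199 Mb) were in a different state in the other gonad. When the same state in an adjoining bin also counted as a match, the share was 30.1%. The share was lowest on chromosome 7, at 43.5%, and highest on chromosome 10, at 50.2%, with an SD of 1.58 points. Exchange between Polycomb repression and the undefined state made up 42.6% of the changed bins, or 2553506 bins. Of these, 1348595 bins were Polycomb in the ovary and undefined in the testis, and 1204911 the reverse, a ratio of 1.12. The first kind was the larger on 19 of 19 autosomes, from 1.002 times on chromosome 7 to 1.22 times on chromosome 8. Exchange between the poised enhancer and the undefined state made up a further 17.2%. Active and poised enhancer exchange made up 13.4%, and poised enhancer and Polycomb exchange 12.4%.

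Apart from the gap state, promoters kept the largest share of their bins. Of the promoter bins of the ovary, 60.2% were promoter in the testis, and of those of the testis, 62.7% were promoter in the ovary. The Jaccard index, the bins in a state in both gonads over the bins in it in either, was 0.443 for promoters. It was 0.361 for active enhancers, 0.290 for Polycomb repression, 0.228 for bivalent promoters and 0.224 for poised enhancers. The gap state had an index of 0.836. Unequal coverage lowers this index, which bears most on the bivalent state: 53.2% of its bins in the testis were bivalent in the ovary, but only 28.6% of its bins in the ovary were bivalent in the testis.

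The directions of change were unequal among promoter, bivalent promoter and Polycomb repression. Bins that were promoter in the ovary and bivalent in the testis numbered 11325, against 860 of the reverse kind, 13.2 times as many. Bins that were bivalent in the ovary and Polycomb in the testis numbered 47533, against 1812 of the reverse kind, 26.2 times as many. Both imbalances had the same direction on 19 of 19 autosomes. The first ranged from 4.64 times on chromosome 2 to 41.6 times on chromosome 9, and the second from 11.98 times on chromosome 12 to 55.95 times on chromosome 19. Placing the 3 states in the order promoter, bivalent, Polycomb, 61390 bins stood further towards Polycomb in the testis and 4024 in the ovary, a ratio of 15.3. It was lowest on chromosome 16, at 9.30, and highest on chromosome 19, at 27.7. The bins that were bivalent in the ovary and Polycomb in the testis lay in long runs, with a median of 800 bp and 81.0% of the bins in runs of at least 1000 bp. The exchange of Polycomb in the ovary for undefined in the testis was fragmented, with a median run of 200 bp, 38.7% of its bins alone and 7.47% in runs of at least 1000 bp.

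The states that surround promoters also changed unequally. Of the promoter bins of the testis, 25.4% were active enhancer in the ovary, 24207 bins in all. Of the promoter bins of the ovary, 13.1% (13058 bins) were active enhancer in the testis. Bins that were active enhancer in the ovary and bivalent in the testis numbered 3580, against 123 of the reverse kind, a ratio of 29.1. Bins that were bivalent in the ovary and poised enhancer in the testis numbered 13255, against 4544 of the reverse kind. Between promoter and undefined the counts were closer: 3063 bins were promoter in the ovary and undefined in the testis, and 3472 the reverse, a ratio of 0.882. The first kind was the larger on 3 of 19 autosomes.

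Among enhancers the imbalance was smaller but concerned many more bins. Of the active enhancer bins of the ovary, 47.8% were active enhancer in the testis, 33.0% were poised, 13.4% undefined and 4.04% Polycomb. Of those of the testis, 59.6% were active enhancer in the ovary, 22.4% poised, 12.7% undefined and 4.20% Polycomb. Active bins of the ovary that were poised in the testis numbered 521540, against 284353 of the reverse kind, a ratio of 1.83. That ratio ran from 1.56 on chromosome 13 to 2.22 on chromosome 11. Active bins that were undefined in the other gonad numbered 212616 for the ovary and 161563 for the testis, and active bins that were Polycomb in the other numbered 63958 and 53233. The poised state itself exchanged almost evenly with the undefined state, with 525281 and 507122 bins.

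**Figure D2:**
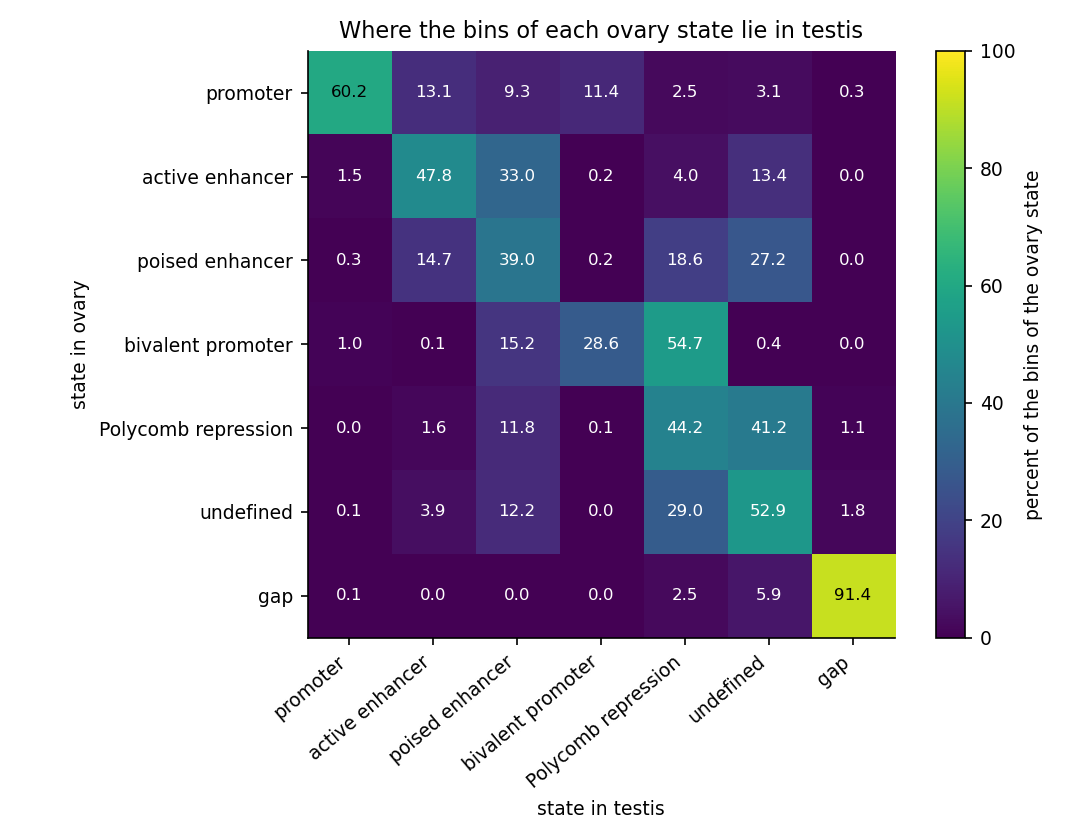
Share of the bins of each ovary state (rows) that were in each state in testis (columns), in percent of the row; colour runs from 0 to 100. The diagonal is highest for gap and promoter, and 54.7% of the bivalent promoter row lies in the Polycomb column against 28.6% on the diagonal.

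Segments, the runs of adjoining bins in the same state, were longer in the ovary for active enhancers and bivalent promoters. The ovary had 243871 active enhancer segments with a median of 800 bp and the testis 260381 with a median of 600 bp, so the testis had more segments but less coverage. The base-weighted median, the length at which segments that long or longer hold 50% of the bases, was 2200 bp in the ovary and 1600 bp in the testis. Active enhancer segments of at least 10 kb numbered 1381 in the ovary, where they held 5.89% of the state, and 181 in the testis, where they held 0.852%. Promoter segments had a median of 600 bp and a base-weighted median of 1200 bp in both gonads. Polycomb segments had a median of 400 bp in both.

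Long active enhancer segments of the ovary held several shorter active enhancer segments in the testis. The 1381 segments held a median of 5 separate active enhancer pieces in the testis, which covered a median of 74.2% of their length (quartiles 60.7% and 84.6%). None of the 1381 lacked active enhancer state in the testis, and 156 (11.3%) held less than 50%. Over all of their bases, 72.1% were active enhancer in the testis, 20.5% poised and 0.931% Polycomb. The 181 long segments of the testis held a median of 2 pieces in the ovary, which covered a median of 94.2%. The longest of the ovary lay on chromosome 4 at 106603401 to 106670400 and was 67000 bp long. In the testis 84.8% of it was active enhancer, in 28 pieces, and 15.2% was poised. The longest of the testis, on chromosome 12 at 80937401 to 80957200, was 19800 bp long and was 97.0% active enhancer in the ovary.

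Bivalent segments differed in length more than promoter, active enhancer, poised enhancer or Polycomb segments. The ovary had 9115 with a median of 1000 bp and a base-weighted median of 3400 bp. The testis had 13954 with a median of 400 bp and a base-weighted median of 1000 bp. Segments of at least 5 kb numbered 663 in the ovary, with 36.5% of the bivalent bases, and 55 in the testis, with 4.50%. Of the bases in the 663 long segments, 61.8% were Polycomb in the testis, 32.5% bivalent, 5.18% poised and 0.284% promoter. The median long segment kept 29.6% of its length as bivalent state in the testis, and 75 of them (11.3%) kept none. The bivalent and Polycomb states together covered a median of 97.2% of each in the testis. Of the bases in the 55 long segments of the testis, 91.7% were bivalent in the ovary.

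Some single regions show the same exchange. The longest bivalent segment of the ovary, 45800 bp on chromosome 11 at 96024801 to 96070600, was 78.6% Polycomb and 18.8% bivalent in the testis. The longest Polycomb segment of the testis, 22600 bp on chromosome 1 at 63296201 to 63318800, was bivalent over 100% of its length in the ovary. In the testis, 33.6% of the bases in Polycomb segments of at least 5 kb were bivalent in the ovary. Of those of the ovary, 0.0605% were bivalent in the testis. The longest bivalent segment of the testis did not show this exchange. It measured 43800 bp, on chromosome 11 at 3049401 to 3093200, and was 98.6% bivalent in the ovary.

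**Figure D3:**
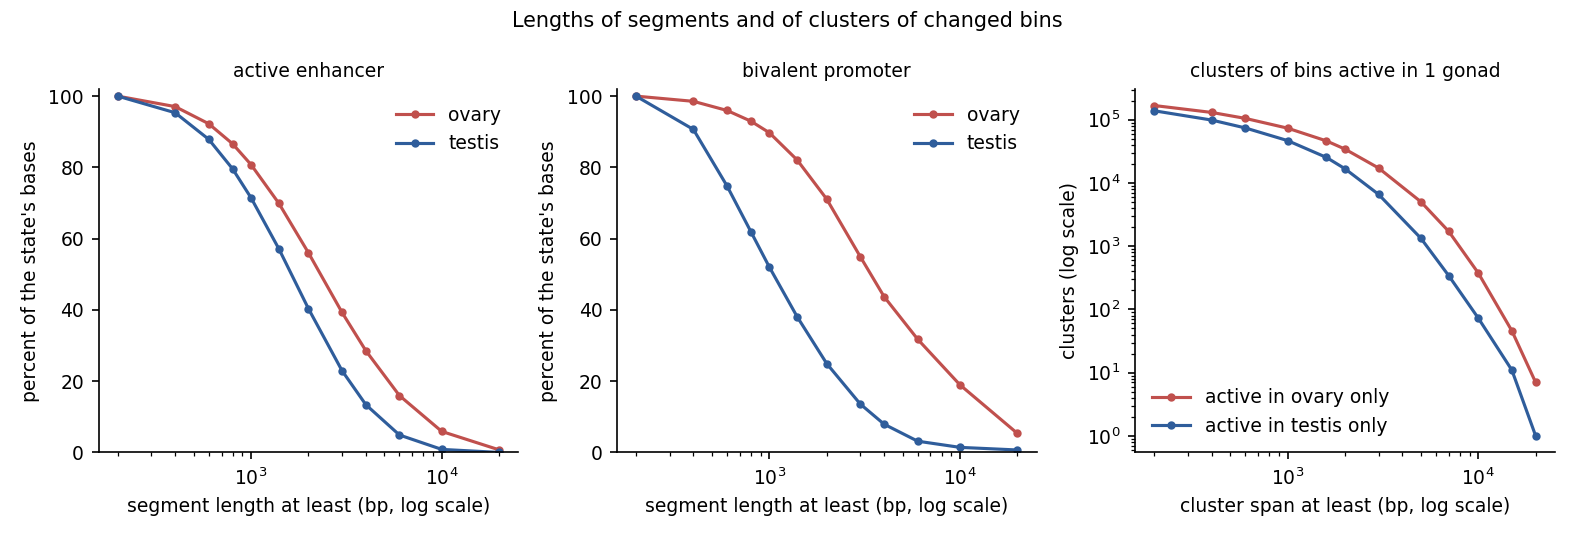
Left and middle, percent of the bases of the active enhancer and the bivalent promoter state (y axis) in segments at least as long as the x axis value (bp, log scale), in ovary and testis. Right, number of clusters of bins active in 1 gonad only (log scale) at least as long as the x axis value. At every length drawn above 200 bp the ovary curve lies above the testis curve, and segments of at least 5 kb hold 36.5% of bivalent bases in the ovary and 4.50% in the testis.

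The bivalent state of the testis lay beside promoters more often than that of the ovary. Of the 13954 bivalent segments of the testis, 6752 (48.4%) adjoined a promoter segment of the same gonad, against 1439 of 9115 (15.8%) in the ovary. Those 6752 segments had a median of 400 bp, and in the ovary 55.6% of their bases were promoter, 19.25% active enhancer and 14.2% bivalent. The 7202 other bivalent segments of the testis were 70.1% bivalent in the ovary. Seen from the promoter, 15.5% of the edges of promoter segments met a bivalent segment in the testis and 2.98% in the ovary. Active enhancer met 58.3% of promoter edges in the testis and 75.7% in the ovary.

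The position within a segment shows where promoters changed. Promoter segments of at least 2 kb were compared by distance from their nearer edge, 1453 in the ovary and 1391 in the testis. Within 200 bp of the edge, 54.3% of the ovary's promoter bins were promoter in the testis, 15.9% bivalent and 15.6% active enhancer. At 800 to 1000 bp from the edge, 88.4% were promoter and 4.82% bivalent. For the promoter segments of the testis, 52.8% of the bins within 200 bp of the edge were promoter in the ovary, 38.7% were active enhancer and 1.40% bivalent. At the edges of the ovary's promoters a further 12.4% was poised enhancer in the testis. In both gonads the share that kept the promoter state was lowest at the edge.

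Bivalent segments of the ovary changed over their whole length. In 2738 segments of at least 2 kb, 58.8% of the bins within 200 bp of the edge were Polycomb in the testis. At 800 to 1000 bp from the edge the share was 60.2%. The bivalent share rose from 22.8% to 25.6% over the same distance, and the poised enhancer share fell from 16.4% to 13.35%. At 1000 bp or more these shares were 33.4% and 5.92%, but only segments longer than 2 kb have bins there. The 746 bivalent segments of this length in the testis were 82.3% bivalent in the ovary at their edges and 88.7% at 800 to 1000 bp. Active enhancer segments of this length held more of the state away from their edges. For 47005 segments of the ovary, 43.6% of edge bins and 55.9% of bins at 800 to 1000 bp were active enhancer in the testis. For 32544 segments of the testis, 63.0% and 72.8% were active enhancer in the ovary.

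**Figure D4:**
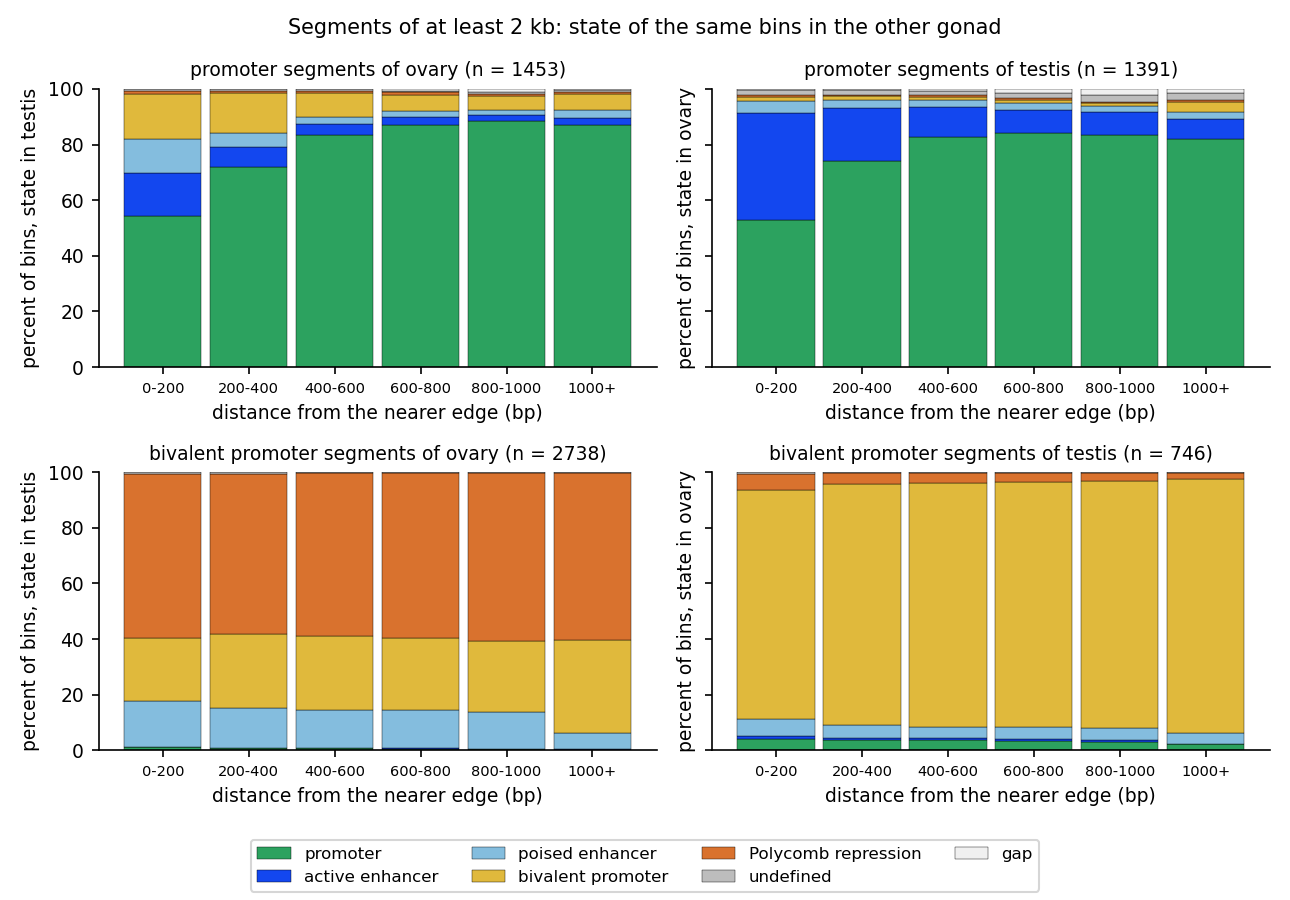
State in the other gonad (stacked percent of bins, 0 to 100) by distance from the nearer edge (bp), for promoter and bivalent promoter segments of at least 2 kb; n is the number of segments. Promoter bars keep more promoter state away from the edge in both gonads, and the Polycomb share of bivalent segments of the ovary stays between 57.6% and 60.2%.

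Segments were next divided by whether they shared any bin with a segment of the same state in the other gonad. Of 27162 promoter segments of the ovary, 51.8% shared at least 1 bin with a promoter segment of the testis (Wilson 95% interval 51.2 to 52.4), and of 25404 in the testis, 55.5% (54.9 to 56.1). These and the following intervals cover counting error only. Segments that shared none were short, with a median of 200 bp in both gonads against 1000 bp and 800 bp for those that shared. Those of at least 1 kb numbered 708 in the ovary and 823 in the testis. Segments that shared none held 62.9% of the promoter bins found in the ovary only and 65.1% of those found in the testis only. The bases of unshared promoter segments of the testis were 62.4% active enhancer, 17.9% poised and 2.11% bivalent in the ovary. Those of the ovary were 36.9% active enhancer, 26.9% poised and 15.4% bivalent in the testis.

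Of the active enhancer segments, 53.4% of the ovary's (53.2 to 53.6) and 61.1% of the testis's (60.9 to 61.3) shared a bin with the same state. Segments that shared a bin held 55.8% of the active enhancer bins found in the ovary only and 46.1% of those found in the testis only, at their edges or inside them. The rest lay in separate segments. Separate active enhancer segments had a median of 400 bp in both gonads, and those of at least 1 kb numbered 24136 in the ovary and 15721 in the testis. In the other gonad their bases were mostly poised (51.3% for the ovary's, 47.4% for the testis's) or undefined (34.6% and 36.7%). Of the bivalent segments, 48.99% of the ovary's (47.96 to 50.01) and 35.6% of the testis's (34.8 to 36.4) shared a bin. When 50% of the segment had to be shared the order turned, with 26.6% and 32.6%. Separate bivalent segments of the ovary were 71.0% Polycomb and 1.63% promoter in the testis, and those of the testis were 5.82% Polycomb and 55.8% promoter in the ovary.

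The bins that were active in 1 gonad only, where active means promoter or active enhancer, were more numerous and formed longer clusters in the ovary. The larger number follows from the larger active coverage of the ovary and is not a separate result. Bins active in 1 gonad only made up 6.7% of all bins in the ovary (828566 bins, 165.7 Mb) and 4.13% in the testis (510914 bins, 102.2 Mb). Joined over gaps of at most 1000 bp, they gave 167885 clusters with a median span of 800 bp in the ovary and 138585 with a median of 600 bp in the testis. Joined over at most 5000 bp they gave 78139 and 80147, so which gonad had more clusters turned on the joining distance. At 1000 bp, clusters of at least 5 kb numbered 5051 and 1337, and clusters of at least 10 kb 377 and 73. Of the clusters, 57.4% in the ovary and 50.6% in the testis touched chromatin that was active in both gonads. Within 2 kb of a promoter or bivalent segment of either gonad lay 20.3% of the ovary's clusters and 15.7% of the testis's. No share over all bins is given here for comparison. Promoter state made up 3.20% of the bins active in the ovary only and 2.22% of those active in the testis only. A cluster with promoter bins is near a promoter segment by definition, and a longer cluster reaches one more easily. These shares therefore do not show whether active clusters favour promoters, in either gonad or against the repressive clusters. Clusters of bins that were bivalent or Polycomb in 1 gonad only lay this near in 5.40% of cases for the ovary and 5.72% for the testis. In the other gonad, 64.1% of the bins active in the ovary only were poised, 26.03% undefined and 8.02% Polycomb. For the testis these shares were 56.6%, 32.3% and 10.7%.

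The regions named next are the longest clusters of their kind, so their length follows from the choice. The longest cluster active in the ovary only lay on chromosome 8 at 93819001 to 93848000. Over its 29 kb span the ovary was 84.8% active enhancer and 7.59% promoter, and the testis was 11.7% active enhancer, 31.7% poised, 36.6% undefined and 14.5% Polycomb. On chromosome 7 at 123698401 to 123724200, the ovary was 86.1% active enhancer and 6.20% promoter, and the testis held 3.10% active enhancer and 0% promoter with 27.1% Polycomb. On chromosome 3 at 130854601 to 130880200, the ovary was 75.8% active enhancer and the testis 66.4% poised and 8.59% active enhancer. The regions on chromosome 1 at 88189001 to 88212200 and on chromosome 16 at 91485401 to 91507800 also held promoter state in the ovary, 15.5% and 15.2%, against 0% and 0.893% in the testis. Among these 5 regions the chromatin of the testis was thus poised over most of the span in 2, on chromosomes 3 and 1, and undefined or Polycomb over most of it in the rest.

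In the testis the longest such cluster lay on chromosome 14 at 54794601 to 54818200. Its 23.6 kb were 69.5% active enhancer in the testis, and 72.0% poised and 18.6% Polycomb in the ovary. On chromosome 10 at 22624601 to 22643000, the testis was 85.9% active enhancer and the ovary 66.3% poised and 20.7% Polycomb. On chromosome 8 at 118771001 to 118789000, the testis was 87.8% active enhancer and the ovary 42.2% poised and 40% Polycomb. The regions on chromosome 7 at 78358401 to 78375800 and on chromosome 2 at 78917401 to 78934200 held 10.3% and 10.7% promoter state in the testis, against 0% and 1.19% in the ovary.

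Bins that were active in a gonad and repressive in the other, where repressive means bivalent promoter or Polycomb repression, were few and scattered. They made up 0.658% of bins for activity in the ovary (81395 bins) and 0.450% for activity in the testis (55568 bins). Clusters of a single bin were 58.8% and 63.5% of all, and 7 clusters reached 5 kb in each direction. For activity in the ovary, 18.3% of the repressive bins of the testis were bivalent, and for activity in the testis 1.77% of those of the ovary were.

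The 5 longest clusters in each direction were a mix of promoter and enhancer regions. On chromosome 2 at 74526201 to 74535800, 9.6 kb long, the ovary was 97.9% bivalent and the testis 95.8% promoter. On chromosome 11 at 85648201 to 85654800, the ovary was 81.8% bivalent and the testis 100% promoter. In the opposite direction, chromosome 5 at 120791001 to 120797000 was 90% promoter in the ovary, and 70% Polycomb and 30% undefined in the testis. Chromosome 11 at 48666401 to 48672200 was 62.1% promoter in the ovary and 82.8% bivalent in the testis, and chromosome 4 at 146896201 to 146901800 was 60.7% promoter and 82.1% bivalent. Others held no promoter state in either gonad. Chromosome 1 at 166309601 to 166315200 was 75% active enhancer in the ovary and 53.6% Polycomb in the testis, and chromosome 8 at 89715401 to 89720800 was 74.1% active enhancer in the testis and 70.4% Polycomb in the ovary.

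Exchange between the promoter and the bivalent state alone formed 5911 clusters of promoter bins of the ovary that were bivalent in the testis, with a median span of 400 bp and 1 of them of at least 5 kb. The reverse gave 340 clusters with a median of 200 bp. The longest of these 340, on chromosome 2, held 9 kb of changed bins, which is 5.23% of all bins of this kind. Others lay on chromosome 2 at 77808601 to 77813400, where the ovary was 95.8% bivalent and the testis 70.8% promoter, and on chromosome 10 at 22533601 to 22538000, where the ovary was 95.5% bivalent and the testis 95.5% promoter.

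Bins that were repressive in 1 gonad only numbered 1839298 in the ovary and 1682137 in the testis, 14.9% and 13.6% of all bins. The larger number in the ovary follows from its larger repressive coverage. These bins were nearly all Polycomb, 99.2% in the ovary and 98.8% in the testis, and mostly undefined in the other gonad, 73.3% and 71.7%. Clusters of at least 10 kb numbered 1453 and 637. The longest of the ovary, on chromosome 11 at 111557001 to 111582800, was 71.3% Polycomb in the ovary, and 45.7% undefined, 32.6% Polycomb and 18.6% poised in the testis. On chromosome 17 at 62995201 to 63020600, the ovary was 70.9% Polycomb and 10.2% bivalent, and the testis 66.9% poised. On chromosome 13 at 98149601 to 98174400, the ovary was 66.1% Polycomb and the testis 56.5% poised. On chromosome 4 at 64295001 to 64319600, the ovary was 74.0% Polycomb and the testis 40.7% undefined, 28.5% Polycomb and 21.95% poised. On chromosome 2 at 36726401 to 36750200, the testis was 60.5% Polycomb and the ovary 56.3% undefined and 29.4% Polycomb. On chromosome 17 at 19148401 to 19170600, the testis was 84.7% Polycomb and the ovary 49.5% Polycomb and 48.6% undefined.

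Over larger distances the gonads resembled each other more than their bins did. Across bins, the Pearson correlation between gonads of the presence of the Polycomb state was 0.233 (11010443 bins with the gap state in neither gonad). It was 0.441 for its coverage in windows of 1 kb, 0.756 in 10 kb, 0.884 in 100 kb and 0.918 in 1000 kb. The active enhancer state went from 0.465 to 0.952 over the same sizes, and the promoter state from 0.615 to 0.959. The bivalent state began at 0.387 and reached 0.768, the lowest value of these states in windows of 1000 kb. These values describe windows of the same genome, which share gene density and mappable sequence, and they carry no p-value. The mean absolute difference in Polycomb coverage was 31.5 points for bins, 5.11 points in 100 kb and 3.06 points in 1000 kb.

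Windows of 100 kb with less than 50% gap state in each gonad, 23439 in all, were used to find regions that differ over a distance. Active coverage was at least 10 points higher in the ovary in 3423 windows (14.6%) and in the testis in 528 (2.25%). The mean window was 14.3% active in the ovary and 11.6% in the testis. After both gonads were scaled to the same active total, an alternative chosen after the data had been seen, the counts were 1366 and 1244. Repressive coverage was at least 10 points higher in the ovary in 2403 windows (10.3%) and in the testis in 622 (2.65%), or 1630 and 972 after scaling.

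Active and repressive states moved in opposite directions in the windows that differed most. In the 777 windows with active coverage at least 20 points higher in the ovary, the median was 52.8% in the ovary and 27% in the testis. Repressive coverage there had a median of 5.2% in the ovary and 10.2% in the testis, and was higher in the testis in 750 windows. In the 75 windows at least 20 points higher in the testis, the medians of active coverage were 16.2% in the ovary and 42.4% in the testis. Repressive coverage had medians of 21.2% and 7.4% and was higher in the ovary in 74. Over all 23439 windows its medians were 29.2% in the ovary and 27.2% in the testis. It was higher in the ovary in 12449 of these and in the testis in 10677. The 777 and the 75 windows were chosen on active coverage. The shares of a window add up to its whole, so more of a state leaves less room for the others. Poised coverage differed between the gonads more in the first set, with medians of 14.6% in the ovary and 27.6% in the testis, than in the second, with 31.6% and 28.2%.

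Most of the windows stood alone. The 777 formed 608 stretches, of which 484 were a single window, and the 75 formed 63 stretches, of which 54 were a single window. The longest stretch for the ovary had 5 windows, a length found in 2 stretches. The first lay on chromosome 5 at 140400001 to 140900000, with 55.8% active coverage in the ovary and 31.2% in the testis. For the testis the longest had 3 windows, and the first of the 3 such stretches lay on chromosome 5 at 107400001 to 107700000, with 37.7% in the ovary and 61.1% in the testis.

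The windows named next are the 5 most extreme of each kind, chosen on the difference given. For active coverage in the ovary, 3 of the 5 adjoin on chromosome 8. From 93900001 to 94000000 the ovary was 73.4% active and the testis 24.4%, from 94000001 to 94100000 the values were 76.8% and 25.6%, and from 94100001 to 94200000 they were 61.2% and 12%. The longest cluster active in the ovary only ends before the first of these windows. In the testis this stretch was poised over 26.8%, 38.4% and 53.2% of the windows and Polycomb over 9.6%, 10.4% and 9.8%. Chromosome 14 at 61600001 to 61700000 was 80% active in the ovary and 29% in the testis, where 49.8% was poised. Chromosome 3 at 130800001 to 130900000 was 69.4% active in the ovary and 18.6% in the testis, and holds the third longest of the clusters named above.

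In the testis, chromosome 14 at 28800001 to 28900000 had the largest excess, with 61.8% active coverage against 13% in the ovary, where 29.2% was Polycomb and 34% poised. Chromosome 1 at 182800001 to 182900000 was 61.8% active in the testis, with 10.4% promoter state, and 22% active in the ovary, with 1.8% promoter and 5.4% bivalent state. Chromosome 10 at 119800001 to 119900000 held 67% in the testis and 28.2% in the ovary. Chromosome 3 at 122100001 to 122200000 held 48.4% and 11%, with 31.2% Polycomb in the ovary. Chromosome 13 at 64100001 to 64200000 held 41% and 4.8%, with 23.8% Polycomb in the ovary. In each of these 5 windows the Polycomb state covered more in the ovary than in the testis, where it took at most 7%.

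The named windows with more repressive coverage in the ovary held more poised and active chromatin in the testis. Chromosome 18 at 66600001 to 66700000 was 53.4% Polycomb and 5.4% bivalent in the ovary, and 59% poised and 17.8% active enhancer in the testis. Chromosome 10 at 22500001 to 22600000 was 43.8% Polycomb and 13.2% bivalent in the ovary, and in the testis 12.6% promoter, 15% active enhancer and 0% bivalent. This window holds the cluster at 22533601 that was bivalent in the ovary and promoter in the testis, and the testis-only active cluster at 22624601 lies just beyond its end. Chromosome 14 at 49300001 to 49400000 was 71.8% repressive in the ovary and 29.6% in the testis, where 39.8% was poised.

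The named windows with more repressive coverage in the testis varied in kind. Chromosome 13 at 12900001 to 13000000 was 52.2% bivalent and 39.2% Polycomb in the testis, and 20% bivalent, 38.6% Polycomb and 31% poised in the ovary, so here the bivalent state was the larger in the testis. Windows on chromosome 12 at 18300001 to 18400000 and at 19100001 to 19200000 were 70.6% and 67.6% Polycomb in the testis and 38.8% and 37.6% in the ovary, with at most 0.6% active coverage in either gonad. The gap state also differed in these windows, with 15% and 6.2% in the ovary and 11.2% and 2.2% in the testis. On chromosome 4, the window at 146800001 to 146900000 was 27.8% bivalent and 30.6% Polycomb in the testis, and 29% active in the ovary against 4.8% in the testis.

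**Figure D5:**
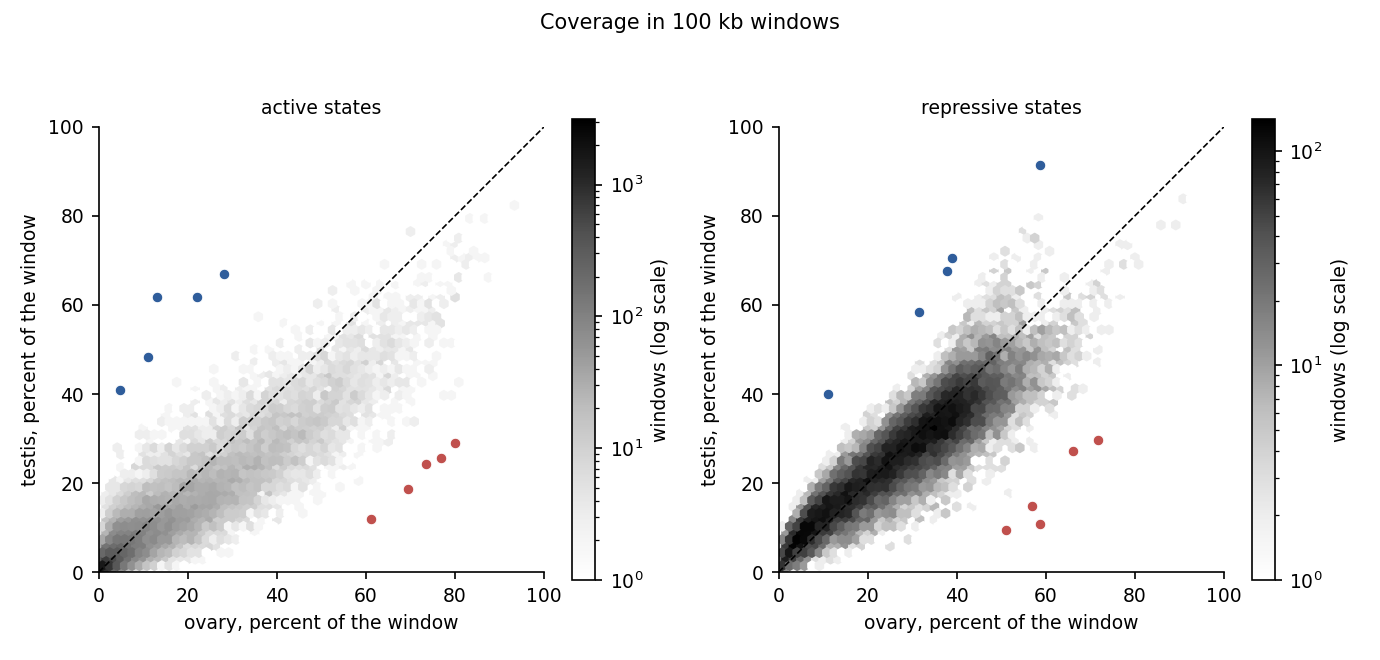
Coverage of 23439 windows of 100 kb in ovary (x axis) and testis (y axis), in percent, for the active and the repressive states; grey gives the number of windows (log scale), the dashed line marks equal coverage, and coloured points are the 5 windows with the largest excess in ovary (red) and in testis (blue). For active coverage, 3423 windows lie at least 10 points to the ovary side of the line and 528 to the testis side.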

How the data were processed

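The state names were deposited by the authors as segments of whole 200 bp bins, 3724059 in the ovary and 3842222 in the testis over all chromosomes. EpiCSeg made both mouse segmentations, per the file headers, which state no version. An aligner, STAR 2.6.1d, and the mm9 build are named per the submitters' processing notes. Neither headers nor labels say how marks and replicates were combined, or whether both gonads were segmented with the same model. Every segment started and ended on a multiple of 200 bp.

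Segments were expanded to bins on chromosomes 1 to 19 and compared at the same position with numpy 2.4.6 and scipy 1.17.1 in Python 3.11.15. Active means promoter or active enhancer, and repressive means bivalent promoter or Polycomb repression. Changed bins were joined over at most 1000 bp. The 5 longest clusters of each kind, the longest segments and the 5 most extreme windows of 100 kb were named, with no mouse gene annotation used. Cut-offs for long segments, the edge profiles, the piece counts and the 10 and 20 point limits were set after the data had been seen. The comparison and its rules were chosen with earlier results of these data known. No test was planned. The functions were tested on simulated data.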

Additional observations from a re-analysis of the deposited data

Results flagged for a closer look

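The sex chromosomes lie outside the comparison and held signal that differed between the gonads. On chromosome Y, 7.17% of the 79512 bins were in a state other than gap in the testis, against 1.17% in the ovary. Promoter, active enhancer and poised enhancer bins were found there in the testis (0.104%, 0.0780% and 0.128%) and not in the ovary, where bivalent promoter (0.616%), Polycomb (0.382%) and undefined bins (0.167%) made up the rest. On chromosome X, Polycomb repression covered 50.8% of 833251 bins in the ovary and 31.4% in the testis, and the undefined state 20.3% and 36.5%. The gap state was unequal there too, with 19.1% in the ovary and 25.8% in the testis. How far this bears on the other shares was not tested.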

How the results depend on the processing

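The 6 coverage ratios kept their direction under every alternative run. The order of the gonads turned for the counts of active and of repressive clusters and for the share of bivalent segments, and the cause was not tested. With segments of 1 bin replaced by the state before them, the promoter ratio of testis to ovary rose from 0.959 to 0.993, and the cause was not tested. The share of bins in a different state was 52.4% without gap bins, 37.3% without gap and undefined bins, 30.1% when an adjoining bin could match, and 46.7% with 1-bin segments replaced. Leaving out each chromosome in turn gave 48.4% to 48.8%. With segments of at least 2 bins only, median lengths in ovary and testis were 800 and 800 bp for promoters, 1000 and 800 bp for active enhancers, 1400 and 600 bp for bivalent promoters, and 600 and 600 bp for Polycomb. Counts of clusters depended on the joining distance. Bins active in the ovary only gave 257665 clusters when only adjoining bins were joined and 78139 when joined over at most 5000 bp. For the testis the second setting gave 80147, more than for the ovary, so which gonad had more clusters depended on this choice. Bins repressive in 1 gonad only gave 481405 clusters in the ovary and 494468 in the testis when joined over at most 1000 bp. The other 2 settings gave 1048197 and 76298 in the ovary and 1011206 and 84389 in the testis. The ovary thus had more clusters only when adjoining bins alone were joined. When 50% of a segment had to be shared, the shares in ovary and testis were 47.1% and 51.8% for promoters, 38.7% and 52.55% for active enhancers, and 26.6% and 32.6% for bivalent promoters, so the order of the gonads for the bivalent state turned. With equal totals, windows at least 10 points higher numbered 1366 in the ovary and 1244 in the testis for active coverage, and 972 in the testis for repressive coverage. Of the named windows, between 2 and 5 of each 5 kept a place in the top 5 when windows measured 50 kb or 200 kb or totals were made equal. No paired analysis was possible because each gonad has 1 segmentation and no mouse library carries a replicate number here. Depth is unknown, so how far it limits the calls cannot be given.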
